A study of Drosophila melanogaster with 17 samples.

Results

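The genes described here encode subunits of the proteasome, the protease complex that degrades proteins tagged with ubiquitin. They were taken from the deposited expression workbook as every gene whose symbol begins with Prosalpha or Prosbeta, or with Rpn or Rpt followed by a digit, and were joined to the count data by FlyBase identifier. The rule took 34 of the 17807 genes in the count data, of which 9986 carry a symbol in the workbook. The 34 genes comprise 13 subunits of the core particle, 10 of the base and 8 of the lid of the regulatory particle, and 3 variant paralogs, Prosbeta5R2, Rpt3R and Rpn13R. The 31 core, base and lid genes are called the standard subunits below. The rule does not take Prosalpha1, the remaining alpha subunit of the core, which is described among the closing observations.

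Messenger RNA was sequenced from esg+ cells, named for the gene escargot, of adult Drosophila midguts, sorted by the GFP that the esg-Gal4 driver switches on in stem cells and their enteroblast daughters. All groups, controls included, carried esg-Gal4, UAS-GFP and tub-Gal80[ts], a temperature-sensitive repressor of Gal4, and the controls came from a cross to a control strain without a further UAS transgene. Flies were kept at 18 °C until adulthood and then at 29 °C for 2 days, and each library came from about 100 pooled midguts and 20000 to 40000 sorted cells. Batch 1 held 3 control libraries, 2 with UAS-da, which overexpresses monomeric daughterless, and 3 with UAS-da-RNAi, which knocks it down. Batch 2 held 3 control libraries, 3 with UAS-da:da, a forced homodimer of the same protein, and 3 with UAS-scute. Daughterless is a bHLH transcription factor that pairs with itself or with proneural partners such as Scute. All transgenes were driven only where esg-Gal4 is active, so they share the cells in which they act. Replicates of a group are separate pools of guts.

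The core particle is a barrel with outer rings of alpha subunits, which gate the entrance, and inner rings of beta subunits, some of which carry the proteolytic sites. The regulatory particle caps it. Its base holds the Rpt ATPases, which unfold substrates and open the gate, and the ubiquitin receptors Rpn1, Rpn10 and Rpn13, and its lid holds the deubiquitinase Rpn11 among scaffold subunits. In Drosophila the transcription factor CncC, made from the gene cnc and restrained by Keap1, activates proteasome genes, and the same pair controls the proliferation of intestinal stem cells.

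Total counts ran from 33889877 to 40868714 per library in batch 1 and from 47136298 to 66679229 in batch 2. Levels are given as CPM, counts scaled to a common library size with TMM factors. The targeted gene da stood at 112 ± 22.5 CPM (SD, n = 3) in the batch 1 controls, 871 ± 36.5 (n = 2) with da and 27.9 ± 6.97 (n = 3) in the knock-down. In batch 2 it was at 77.5 ± 1.99 CPM in controls and 218 ± 24.3 with da:da, and sc was at 1.77 ± 0.0583 in controls and 2062 ± 506 with scute (n = 3 each). The 4 progenitor markers (esg, Dl, Su(H) and klu) were all detected, with summed levels of 781 to 931 CPM in batch 1 controls and 919 to 1025 in batch 2 controls. The 5 enteroendocrine markers summed to 135 to 182 CPM in batch 1 controls and 3931 to 4306 in batch 2 controls, and the cause of that gap between batches was not tested. Visceral muscle and haemocyte markers summed to at most 2.81 and 0.167 CPM in any batch 1 library and to at most 19.9 and 3.25 CPM in batch 2, and tracheal and fat body markers to at most 13.3 and 0.872 CPM in any library. In such bulk samples, fewer cells of a type and less RNA per cell cannot be told apart.

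In control cells the core genes were expressed at a higher level per exon length than the regulatory genes. On the FPKM scale (CPM per kilobase of exon), the core genes had a median of 131 in batch 1 controls, with a range of 69.7 to 230, and the regulatory genes a median of 38.3, with a range of 13.0 to 124. In batch 2 controls the medians were 112 and 57.6, and the ranges, 66.6 to 203 and 25.7 to 137, again overlapped. Of counts not divided by exon length, the core genes took 57.1% of the standard subunit total in batch 1 controls and 44.6% in batch 2 controls. The part of exon length in the FPKM difference was not tested. Prosbeta1, which carries the caspase-like site, was the highest of the 31 in both batches, at 230 ± 22.1 and 203 ± 11.3 FPKM (SD, n = 3 each). It was followed by Prosbeta5, which carries the chymotrypsin-like site, at 199.5 ± 19.8 and 153 ± 2.31 FPKM. Their gap was larger than either SD in both batches, whereas in batch 2 Prosbeta5 and the next gene, Prosbeta6 (149 ± 15.1 FPKM), differed by less than the SD of the latter. Rpn1, the large base scaffold with ubiquitin-binding sites, was the lowest, at 13.0 ± 0.258 and 25.7 ± 1.67 FPKM, and its neighbour in batch 2, Rpn2, was at 29.3 ± 1.49. Prosbeta2, which carries the trypsin-like site, was at 131 ± 13.3 and 90.8 ± 7.94 FPKM, within the range of the other core genes. The deubiquitinase Rpn11 was the highest regulatory gene in batch 1, at 124 ± 7.29 FPKM, and the ATPase gene Rpt3 the highest in batch 2, at 137 ± 9.45.

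**Figure D1:**
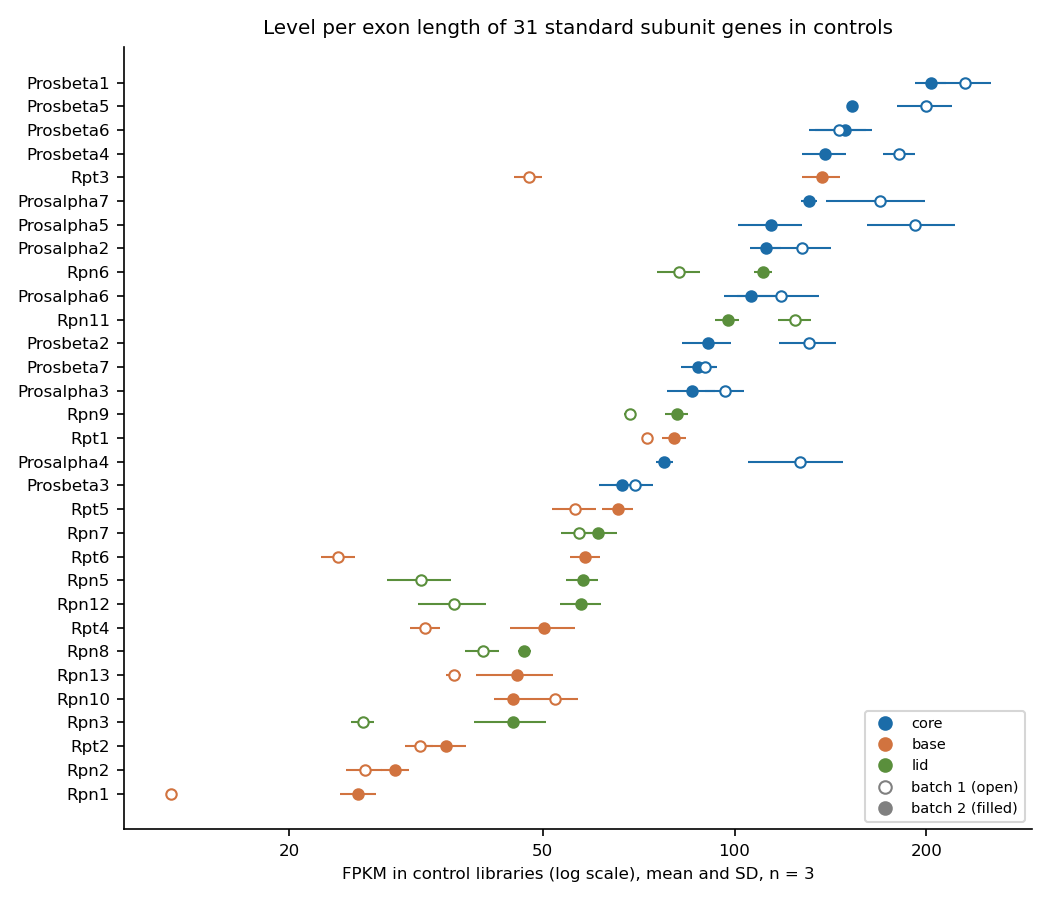
Level per exon length (FPKM, log axis) of the 31 standard subunit genes in the control libraries of batch 1 (open points) and batch 2 (filled points), as mean and SD of 3 libraries, with the genes ordered by their batch 2 level. Most core genes (blue) lie above most base (orange) and lid (green) genes, and Rpt3, Rpt6 and Rpn1 lie higher in batch 2 by log2 differences of 1.53, 1.29 and 0.98.

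The balance between the particles differed between batches more than between genotypes of one batch. The core share of all standard subunit reads per kilobase was 66.7% to 69.8% in batch 1 controls, 65.2% and 70.8% with da and 65.7% to 69.8% in the knock-down. In batch 2 it was 56.7% to 57.7% in controls, 55.3% to 57.2% with da:da and 56.1% to 56.5% with scute. Da and knock-down libraries overlapped the controls, and so did da:da, whereas the 3 scute libraries lay below the 3 controls. The batches were read with different read lengths, so their difference cannot be told apart from the sequencing.

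The summed level of the core genes differed widely between libraries of one group in batch 1. The 13 core genes summed to 2016, 1907 and 1628 CPM in the 3 batch 1 controls, to 1998 and 1530 with da and to 1829, 1779 and 1439 in the knock-down. The low libraries were control replicate 3, da replicate 2 and knock-down replicate 3, and all 3 groups overlapped. The base sums spanned only 625 to 704 CPM over the same 8 libraries. In batch 2 the core sums were 1459, 1414 and 1596 CPM in controls, 1481, 1468 and 1289 with da:da and 1316, 1359 and 1547 with scute, and again the groups overlapped.

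**Figure D2:**
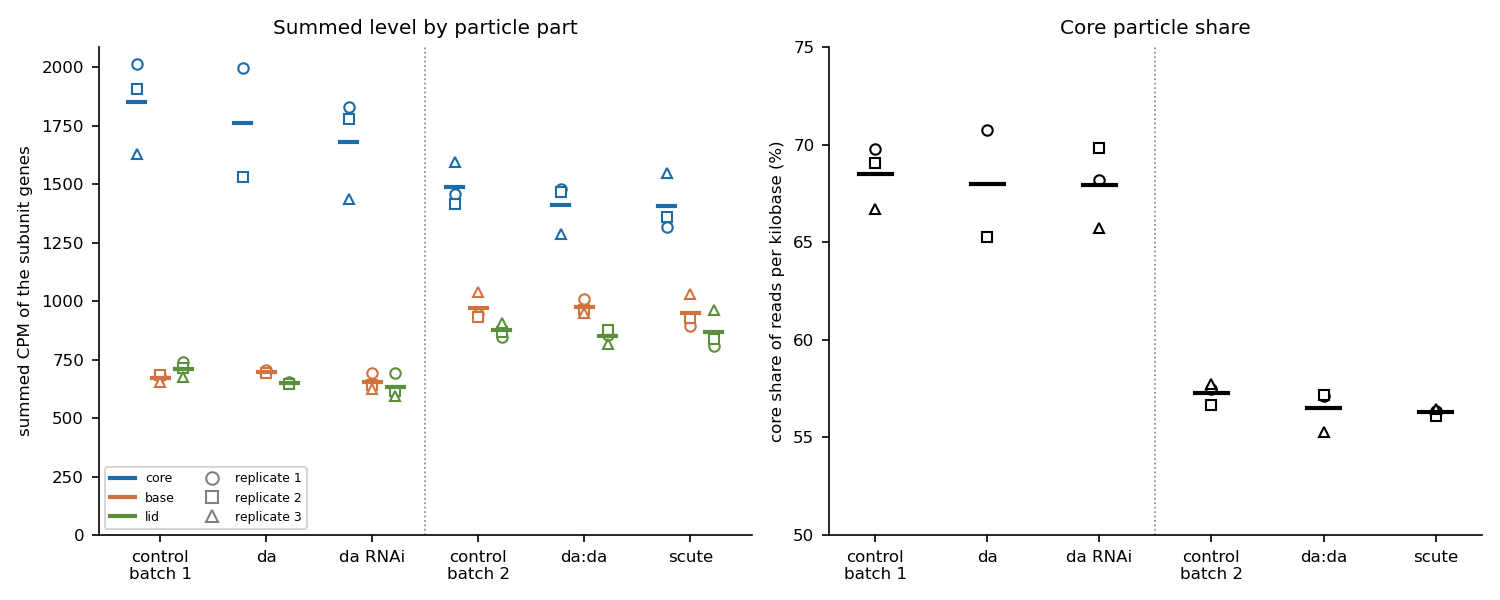
Left, summed CPM of the 13 core, 10 base and 8 lid genes in each of the 17 libraries, with horizontal bars for group means and point shapes for replicate numbers; right, the core share of reads per kilobase of exon (axis from 50% to 75%). The dotted line separates batch 1, where the core share was 65.2% to 70.8%, from batch 2, where it was 55.3% to 57.7%.

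Knock-down of da left the standard subunits without a called change. None of the 31 passed an adjusted p of 0.05 in the edgeR quasi-likelihood test, against 20.4% of all 9540 genes tested, while 2 had an unadjusted p under 0.05 and DESeq2 called 1 (Rpn5). Without TMM factors, 22 of the 31 were called lower, with their median log2 change at -0.49 and that of all genes at -0.37. The summed progenitor markers were at 503 to 608 CPM in the knock-down against 781 to 931 in controls (2 of 4 called lower, 0 higher), and the 7 enterocyte markers at 684 to 857 against 435 to 499 (3 called higher, 0 lower). Of the 5 enteroendocrine markers 3 were called lower and 0 higher, and the part of these marker changes in the values of the subunit genes was not tested. The median log2 change of the 31 subunits was -0.13 on TMM scaling, against -0.01 over all genes, with -0.16 for the core and -0.06 for the regulatory genes, and 25 of the 31 values were below 0. That median was -0.20 without knock-down replicate 1 or control replicate 3 and -0.059 without knock-down replicate 3. The largest rise was that of Prosbeta2, with log2 0.20 ± 0.14 (SE, adjusted p = 0.373). The 95% intervals of the 31 genes together spanned -0.77 to 0.52.

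Rpn5, a scaffold subunit of the lid, came closest to a call. It stood at 61.7, 67.6 and 53.7 CPM in controls and 52.4, 43.5 and 38.1 in the knock-down, and at 44.9 and 49.6 with da. All knock-down libraries lay below all controls, as did both da libraries. The log2 change was -0.45 ± 0.14 (adjusted p = 0.0526) in the knock-down and -0.37 ± 0.16 (adjusted p = 0.132) with da. Both values share the 3 control libraries, and the direct difference of da from the knock-down was 0.08 ± 0.16 (adjusted p = 0.749). A replicate block treats same-numbered knock-down and control libraries as pairs, although the labels do not state such pairing. With it, 2 of the 34 genes were called in the knock-down in place of 1, since Rpn5 then passed (adjusted p = 0.0301). It also passed without control replicate 3 (0.0371) or knock-down replicate 1 (0.0306). In the authors' deposited table Rpn5 was called lower in both, with adjusted p of 0.00582 and 0.0286 and, in that table, 29.5% and 32.6% of all genes called. Rpn10, a ubiquitin receptor of the base, was at 78.8, 77.2 and 67.2 CPM in controls and 67.8, 54.8 and 61.0 in the knock-down, with overlapping groups (log2 -0.28 ± 0.12, adjusted p = 0.131).

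Monomeric da overexpression also changed no standard subunit past the threshold. The count was 0 of 31, against 22.9% of all genes, with 1 gene under an unadjusted p of 0.05 and 0 called by DESeq2. The median log2 change was -0.05 over the 31 genes (-0.13 without da replicate 1 and 0.079 without da replicate 2) and -0.02 over all genes, and the intervals together spanned -0.75 to 0.60. The 3 ubiquitin-binding subunits of the base had values of both signs. Rpn1 was at 39.6, 40.5 and 38.9 CPM in controls and 48.5 and 44.3 with da, Rpn13 at 59.2, 62.4 and 60.4 against 70.6 and 70.8, and Rpn10 at 64.9 and 67.6 with da. The da libraries lay above the controls for Rpn1 and Rpn13 without passing (log2 0.22 for both, adjusted p = 0.167 and 0.176), and Rpn10 had a log2 change of -0.17 ± 0.13 (adjusted p = 0.407). The da libraries lay entirely above the controls for 6 and entirely below them for 6 of the 31 genes, against 51.1% of all genes without overlap in either direction. Of the 5 enteroendocrine markers, 2 were called lower with da and 0 higher, and of the 4 progenitor markers 0 were called. Of the 7 enterocyte markers 1 was called higher and 0 lower, with sums of 542 to 708 CPM against 435 to 499 in controls. The part of these marker changes was not tested.

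The direct comparison of da overexpression with da knock-down called 0 of the 31 standard subunits, against 30.1% of all genes. One had an unadjusted p under 0.05, and DESeq2 called 0. That gene, Rpn1, had the largest difference, log2 0.28 ± 0.11 (adjusted p = 0.0804), from 38.5, 36.6 and 39.5 CPM in the knock-down. Prosbeta2 had the lowest, -0.28 ± 0.16 (adjusted p = 0.224), from 170, 159 and 137 CPM in the knock-down and 145 and 111 with da. The catalytic genes Prosbeta1 and Prosbeta5 had log2 differences of 0.07 ± 0.19 and -0.0018 ± 0.15.

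The forced homodimer da:da called 0 of 31 standard subunits as well, against 11.9% of the 14190 genes tested in batch 2. One gene had an unadjusted p under 0.05, and DESeq2 called 0. That gene was Prosalpha4, an outer ring subunit, at 89.6, 89.6 and 94.6 CPM in controls and 78.7, 78.1 and 67.6 with da:da, where all da:da libraries were lower (log2 -0.29 ± 0.11, adjusted p = 0.122). The highest value was that of the ATPase gene Rpt2, at 56.7, 53.3 and 61.8 CPM in controls and 65.0, 63.4 and 72.5 with da:da (log2 0.23 ± 0.11, adjusted p = 0.245). The core had a median log2 change of -0.10 and the regulatory genes one of -0.02, against -0.01 over all genes, and the intervals spanned -0.52 to 0.46. The difference between the da:da and the da response, tested in a fit of all 17 libraries, also called 0 of 31 (6.99% of all genes, 1 with an unadjusted p under 0.05, 0 by DESeq2). The gene with an unadjusted p under 0.05 was Rpn5 (log2 0.47 ± 0.19, adjusted p = 0.171). The difference between the da:da and the knock-down response called 0 of 31 against 17.9% of all genes (1 with an unadjusted p under 0.05), and its lowest p was that of Rpn5 (log2 0.50 ± 0.18, adjusted p = 0.0676), and DESeq2 called 1, the same gene. Rpn5 also passed in that difference without control replicate 3 of batch 1 (0.0329), knock-down replicate 1 (0.0241) or scute replicate 3 (0.039). The progenitor markers summed to 1237 to 1393 CPM with da:da against 919 to 1025 in controls, where 1 of 4 was called higher and 0 lower. The sum is led by esg, at 651 ± 28.8 CPM in controls and 928 ± 45.5 with da:da. Dl was at 32.7 and 46.1 CPM, klu at 284 and 311 and Su(H) at 14.0 in both. The part of these markers was not tested.

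**Figure D3:**
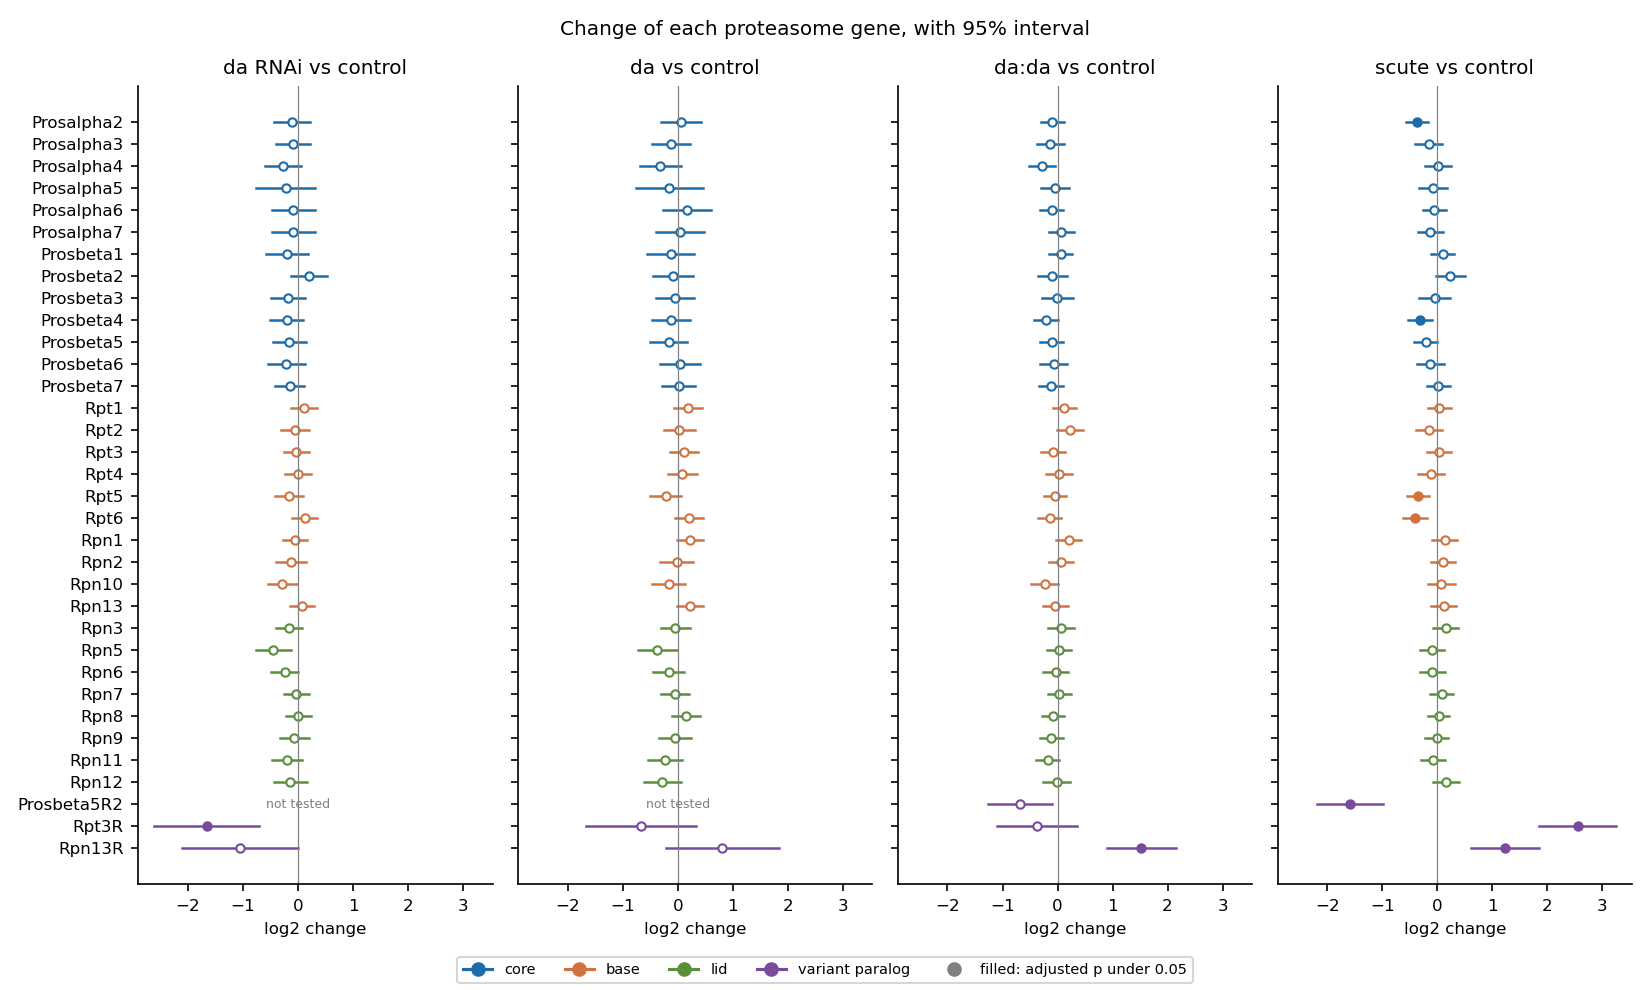
Log2 change of each of the 34 genes against the control of its batch, with the 95% interval, for da knock-down, da, da:da and scute; filled points have an adjusted p under 0.05 and Prosbeta5R2 was not tested in batch 1. The 31 standard subunits lie between -0.45 and 0.23 in all 4 panels, with 4 called, all lower with scute on TMM scaling and slightly above 0 without TMM factors, while the 3 variant paralogs range from -1.66 to 2.55.

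Scute overexpression lowered 4 standard subunits and raised 0 on TMM scaling, against 22.2% and 22.8% of all genes. Without TMM factors, 25 of the 31 were called higher and 0 lower. That setting raised the median log2 change of all genes as well, and the shares of all genes given here are those of TMM scaling. The 4 were the outer ring gene Prosalpha2, the beta ring gene Prosbeta4 and the ATPase genes Rpt5 and Rpt6, so 2 of 13 core, 2 of 10 base and 0 of 8 lid genes were called. Over all genes 45% were called in either direction, and 54.5% of those with at least 10 counts in every library. The median log2 change of the 31 was -0.05, against 0.05 over all genes, and the intervals spanned -0.62 to 0.50. Leaving out 1 library moved that median between -0.11 (without scute replicate 3) and 0.022 (without scute replicate 1).

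Rpt6 was at 85.3, 76.8 and 83.3 CPM in controls, 77.7, 75.7 and 68.6 with da:da and 57.0, 60.6 and 67.4 with scute. All scute libraries lay below all control and all da:da libraries. The log2 change against control was -0.41 ± 0.10, 1.33-fold lower (adjusted p = 0.00417). Rpt6 (FBgn0020369, X:21316052-21317663, + strand, BDGP6.28) shares 13% of its exon bases with the antisense gene CG1801, and counting ignored strand. Reads that overlapped exons of both genes were counted for neither. CG1801 fell from 35.2 ± 16.9 to 1.44 ± 0.317 CPM with scute (log2 -4.61 ± 0.43, adjusted p = 3.28e-06), and its part in the fall of Rpt6 was not tested. With da:da, CG1801 was at 1.87 ± 0.86 CPM, while Rpt6 had a log2 change of -0.14 ± 0.10 (adjusted p = 0.438). In batch 1 controls CG1801 was at 0.0405 ± 0.0383 CPM and Rpt6 at 33.5 ± 2.05.

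Prosalpha2 (FBgn0086134, 3R:12431321-12432556) was at 104, 96.9 and 108 CPM in controls and 76.9, 75.9 and 85.5 with scute, without overlap (log2 -0.38 ± 0.09, adjusted p = 0.00544). Rpt5 (FBgn0028684, 3R:23752876-23754623) was at 103, 104 and 114 CPM in controls and 81.1, 81.0 and 88.7 with scute, again without overlap (log2 -0.35 ± 0.09, adjusted p = 0.00629). These genes share 2.61% and 0.0615% of their exon bases with antisense genes. Prosbeta4 (FBgn0032596, 2L:16731180-16732133) was at 110, 106 and 123 CPM in controls and 84.5, 86.6 and 102 with scute (log2 -0.31 ± 0.10, adjusted p = 0.0242). Its call was lost without control replicate 3 (0.097), scute replicate 1 (0.0951) or scute replicate 2 (0.0973). All 4 fell on TMM scaling, which made the TMM factors 1.17 to 1.22 in scute and 0.86 to 0.91 in control libraries. Without these factors their log2 values were 0.04 for Rpt6, 0.07 for Prosalpha2, 0.09 for Rpt5 and 0.13 for Prosbeta4, with the median of all genes at 0.49. In the authors' deposited table the same 4 standard subunits were called lower and 0 higher, with 58.6% of all genes called.

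**Figure D4:**
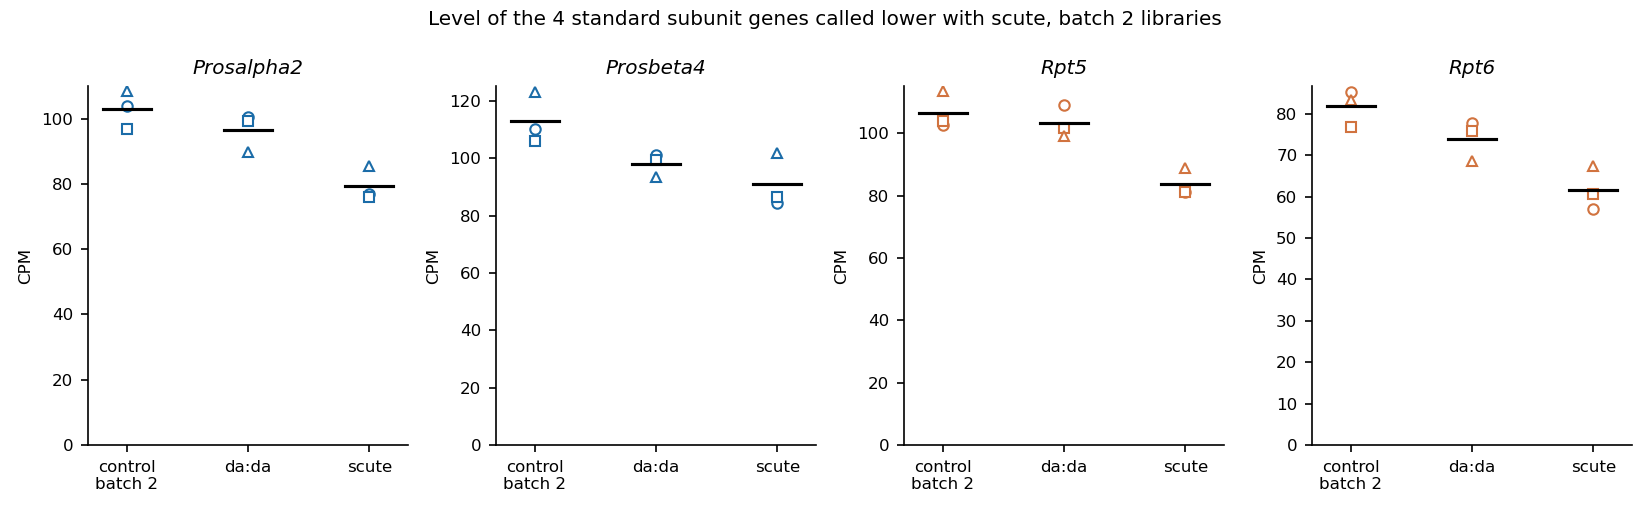
CPM of Prosalpha2, Prosbeta4, Rpt5 and Rpt6 in the 9 batch 2 libraries, with bars for group means and point shapes for replicates 1 (circle), 2 (square) and 3 (triangle). All 3 scute libraries lie below all 3 controls for each gene on this TMM scale, and without TMM factors the log2 changes are 0.04 to 0.13.

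None of the 3 proteolytic genes was called with scute by edgeR or DESeq2, with 1 of them (Prosbeta5) under an unadjusted p of 0.05. Prosbeta1 was at 171, 165 and 184 CPM in controls and 174, 179 and 202 with scute (log2 0.09 ± 0.09, adjusted p = 0.473). Prosbeta2 was at 91.2, 87.3 and 103 CPM in controls and 101.3, 112 and 118 with scute (log2 0.23 ± 0.12, adjusted p = 0.148), the largest rise among the 31, and the groups overlapped. Prosbeta5 was at 173, 173 and 177 CPM in controls and 138, 146 and 167 with scute, all lower, and did not pass (log2 -0.21 ± 0.09, adjusted p = 0.0889). It did pass without scute replicate 3 (adjusted p = 0.022) and when ribosomal protein and mitochondrial genes were left out of the scaling (0.0272), while without TMM factors its log2 change was 0.23 (0.064). Among the regulatory enzymes and receptors, Rpn11 was at 115, 115 and 124 CPM in controls and 103, 107 and 125 with scute, Rpn1 at 72.6, 79.0 and 82.7 against 79.9, 81.7 and 95.4, and Rpn13 at 68.8, 71.5 and 88.2 against 80.1, 85.2 and 82.6. Each of these overlapped, with log2 changes of -0.08, 0.13 and 0.12. Without TMM factors 5 of these 6 genes were called higher, Prosbeta1 with log2 0.54 (adjusted p = 0.000608), Prosbeta2 with 0.68 (0.00047), Rpn1 with 0.58 (0.00141), Rpn13 with 0.56 (0.000775) and Rpn11 with 0.37 (0.00795), and the median of all genes was then 0.49. Beside these values, progenitor markers summed to 710 to 934 CPM with scute, where 2 of 4 were called higher and 2 lower. Enteroendocrine markers summed to 3529 to 5456 CPM, where 4 of 5 were called higher and 1 lower. The sum is led by the peptide hormone gene NPF, the one that fell, from 3776 ± 180 to 1811 ± 264 CPM, while the transcription factor gene pros rose from 39.9 ± 4.24 to 547 ± 99.7 CPM. Enterocyte markers summed to 1133 to 1269 CPM with scute against 926 to 1521 in controls, where 2 of 7 were called higher and 2 lower. The part of these changes was not tested.

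The same genes were also not called with da, its knock-down or da:da, where 22.9%, 20.4% and 11.9% of all genes were. In batch 1, Prosbeta1 was at 207, 207 and 175 CPM in controls, 213 and 147 with da and 175, 195 and 143 in the knock-down. Prosbeta5 was at 250, 227 and 205 CPM in controls, 214 and 193 with da and 226, 209 and 175 in the knock-down. Rpn11 was at 158, 152 and 141 CPM in controls, 130 and 126 with da and 149, 117 and 124 in the knock-down. Among Prosbeta1, Prosbeta5 and Rpn11 the groups overlapped except for Rpn11, where both da libraries lay below the controls (log2 -0.23 ± 0.14, adjusted p = 0.267). For Rpn1 and Rpn13 both da libraries lay above the controls, as given above. Over all genes, da and control libraries did not overlap in 51.1%. In batch 2 da:da libraries, Prosbeta1 was at 190, 181 and 171 CPM, Prosbeta2 at 100, 88.9 and 73.9, and Prosbeta5 at 161, 169 and 156. Rpn11 was at 105, 107 and 98.9 CPM, Rpn1 at 87.7, 82.3 and 99.0 and Rpn13 at 77.9, 70.1 and 74.0. Of these, Prosbeta5 and Rpn11 had log2 changes of -0.11 ± 0.09 and -0.18 ± 0.10 with da:da (adjusted p = 0.589 and 0.305).

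Scute and da:da libraries differed in 7 standard subunits, 3 higher and 4 lower with scute, against 21.4% and 21.2% of all genes and 42.7% in either direction. Rpt2 differed most, from 65.0, 63.4 and 72.5 CPM with da:da to 47.9, 47.5 and 58.5 with scute, without overlap (log2 -0.38 ± 0.11, adjusted p = 0.0128). Its call was lost without scute replicate 1 (0.0534) or scute replicate 2 (0.0652), and those of Rpt5 and Prosalpha2 were lost without either of these (0.0547 and 0.0693 for Rpt5, 0.0883 and 0.114 for Prosalpha2) or da:da replicate 1 (0.0732 and 0.104), that of Prosalpha2 also without da:da replicate 2 (0.0985). Rpt5, Prosalpha2 and Rpt6 were lower by log2 differences of -0.30, -0.28 and -0.26, and Prosbeta2, Rpn10 and Prosalpha4 were higher by 0.33, 0.30 and 0.29. The 3 higher genes (adjusted p = 0.0442, 0.048 and 0.0442) were no longer called with RLE scaling (0.0695, 0.0822 and 0.0794) or DESeq2 (0.0791, 0.101 and 0.0958). Calls of Rpt6 and of the 3 higher genes each ended on leaving out most single libraries. For Rpn10 the values were 59.5, 55.6 and 48.0 CPM with da:da and 59.9, 66.8 and 74.3 with scute, against 60.7, 62.0 and 68.7 in controls. The count of called genes among all 34 was 9, and it fell to 3 without da:da replicate 2, to 4 without scute replicate 1, to 2 without scute replicate 2 and to 5 without da:da replicate 1, control replicate 1 or control replicate 2. With all TMM factors left out, the log2 differences of Rpt2, Prosalpha2, Rpt5 and Rpt6 were -0.056, 0.05, 0.03 and 0.07, none of them called, and 17 of the 34 genes were called, all higher. The median of all genes was then also above 0.

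The response to scute differed from the responses to da and to its knock-down in 1 standard subunit on TMM scaling. In the fit of all 17 libraries, the scute change of Rpt6 was below the da change by a log2 difference of -0.57 ± 0.15 (adjusted p = 0.00898) and below the knock-down change by -0.54 ± 0.14 (adjusted p = 0.00654). Over all genes 28.5% and 35.7% were called in these differences. The first call was lost without da replicate 2 (adjusted p = 0.0663). The fall of the antisense gene CG1801 in batch 2, given above, stands beside both values. The lowest p of the remaining standard subunits in the scute minus da difference was that of Rpn12, a lid subunit, with log2 0.48 ± 0.20 (adjusted p = 0.0798). Rpn12 passed without TMM factors (0.97, adjusted p = 0.00121), among genes with at least 10 counts in every library (0.62, 0.0105) and with the replicate block (0.58, 0.0139). Without TMM factors the Rpt6 differences were -0.086 against da and 0.28 against the knock-down, neither called. Over the 34 genes the counts called against da and the knock-down were 2 and 3, and they became 17 and 32 without TMM factors and 7 and 9 with at least 10 counts in every library. Leaving out the TMM factors also raised the medians of all genes in both differences.

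The 3 variant paralogs were far less abundant than the standard genes they resemble. All 3 were called with scute, where 45% of all genes were. In batch 2 controls Prosbeta5R2 was at 1.11 ± 0.213 FPKM against 153 ± 2.31 for Prosbeta5, Rpn13R at 1.72 ± 0.415 against 45.5 ± 6.3 for Rpn13, and Rpt3R at 0.610 ± 0.105 against 137 ± 9.45 for Rpt3. Many Drosophila proteasome genes have such paralogs, a number of which were described in the male germline. Prosbeta5R2 had 0 to 2 counts in every batch 1 library and did not pass the filter there. Reads with several mapping places were not counted, and how many of them these genes lost was not tested.

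Rpt3R (FBgn0037742, 3R:9754735-9756510) rose with scute. It had 41, 40 and 61 counts in batch 2 controls (0.756, 0.848 and 1.05 CPM), 50, 31 and 23 with da:da (0.907, 0.707 and 0.433 CPM) and 290, 331 and 587 with scute (4.01, 4.19 and 7.41 CPM). All scute libraries lay above all others of the batch. The log2 change was 2.55 ± 0.32, 5.86-fold (adjusted p = 3.7e-05), and the difference from da:da was 2.93 ± 0.33 (adjusted p = 1.69e-05). At 3.59 ± 1.32 FPKM it remained far below Rpt3, which was at 140 ± 6.64 with scute. Of the germline markers, vas was at 0.311 ± 0.0762 CPM in controls and 0.751 ± 0.056 with scute and bam at 0.495 ± 0.193 and 1.64 ± 0.229, and both were called higher (adjusted p = 0.00596 and 0.000976). Together they summed to 2.21 to 2.60 CPM with scute and 0.701 to 0.933 in controls, and their part in the rise of Rpt3R was not tested.

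In batch 1 Rpt3R fell with the da knock-down. It had 43, 33 and 17 counts in controls (1.02, 0.749 and 0.432 CPM), 9, 8 and 6 in the knock-down (0.255, 0.234 and 0.2 CPM) and 15 and 21 with da (0.452 and 0.472 CPM). The knock-down libraries lay below all others, and the da libraries lay within the range of the controls. The log2 change was -1.66 ± 0.43, 3.16-fold lower (adjusted p = 0.0236), and it was -0.66 ± 0.45 (adjusted p = 0.321) with da. The knock-down call was lost without control replicate 1 (0.0936), control replicate 2 (0.0751) or any of the 3 knock-down libraries (0.0571, 0.0639 and 0.0692). The scute change exceeded the da change by a log2 difference of 3.26 ± 0.55 (adjusted p = 0.000212) and the knock-down change by 4.21 ± 0.54 (adjusted p = 7.09e-06).

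Rpn13R (FBgn0029745, X:5131898-5132985) rose with both da:da and scute. It had 117, 99 and 78 counts in batch 2 controls (2.16, 2.1 and 1.35 CPM), 311, 314 and 177 with da:da (5.64, 7.16 and 3.33 CPM) and 365, 337 and 301 with scute (5.05, 4.27 and 3.8 CPM). All libraries of both groups lay above the controls and overlapped each other. The log2 changes were 1.52 ± 0.28 (2.88-fold, adjusted p = 0.0038) with da:da and 1.23 ± 0.28 (2.34-fold, adjusted p = 0.00334) with scute. These comparisons share their control libraries, and the direct difference was -0.30 ± 0.27 (adjusted p = 0.436, 95% interval -0.89 to 0.30).

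In batch 1 Rpn13R had few counts and was highest with da. It had 15, 11 and 14 counts in controls (0.356, 0.25 and 0.356 CPM), 22 and 21 with da (0.663 and 0.472 CPM) and 3, 6 and 6 in the knock-down (0.085, 0.175 and 0.2 CPM). The 3 groups did not overlap. Neither change against control passed (log2 0.81 ± 0.46 with da, adjusted p = 0.232, and -1.06 ± 0.47 in the knock-down, adjusted p = 0.149), while da against knock-down did (1.87 ± 0.49, 3.65-fold, adjusted p = 0.0182). That call was lost with DESeq2 (0.0544) and without da replicate 1 (0.0868) or knock-down replicate 1 (0.0554). The da:da change exceeded the knock-down change by a log2 difference of 2.61 ± 0.54 (adjusted p = 0.00208), and the scute change exceeded it by 2.28 ± 0.54 (adjusted p = 0.00249).

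Prosbeta5R2 (FBgn0051742, 2L:17990418-17991951), a paralog of a catalytic gene, fell with scute. It had 111, 78 and 81 counts in batch 2 controls (2.05, 1.65 and 1.4 CPM), 40, 58 and 60 with da:da (0.725, 1.32 and 1.13 CPM) and 38, 48 and 44 with scute (0.526, 0.608 and 0.556 CPM). The scute libraries lay below all others of the batch and the da:da libraries below the controls. The log2 change was -1.59 ± 0.27, 3.01-fold lower (adjusted p = 0.000447), with scute and -0.69 ± 0.27 (adjusted p = 0.138) with da:da. The difference between scute and da:da was -0.90 ± 0.28 (adjusted p = 0.0196). This last call was lost without da:da replicate 2 (0.0915) or scute replicate 1 (0.0609). In the authors' deposited table the scute calls of the 3 paralogs had the same directions, with log2 changes of 2.58 for Rpt3R, 1.25 for Rpn13R and -1.58 for Prosbeta5R2.

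**Figure D5:**
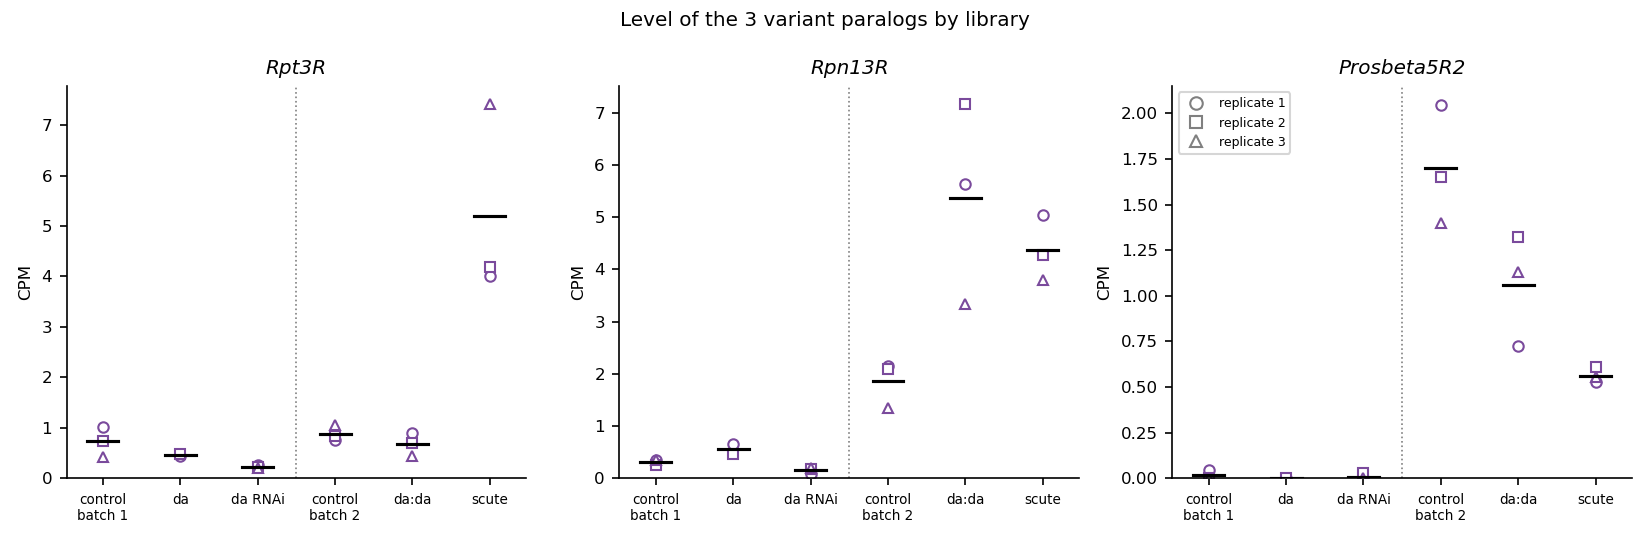
CPM of Rpt3R, Rpn13R and Prosbeta5R2 in each of the 17 libraries, with bars for group means, point shapes for replicates, a separate linear axis from 0 for each gene, and a dotted line between batches. Rpt3R stands at 4.01 to 7.41 CPM with scute, Rpn13R at 3.33 to 7.16 with da:da and 3.8 to 5.05 with scute, and Prosbeta5R2 is close to 0 throughout batch 1.

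Genes that assemble or assist the proteasome moved individually. Of 7 accessory and assembly factors, 0 were called in the da knock-down (where 20.4% of all genes were), 1 rose with da (22.9%), 1 rose and 2 fell with da:da (11.9%), and 2 rose and 1 fell with scute (45%). The fly F-box gene ntc, whose product binds the proteasome regulator PI31, rose in the last 3 comparisons, from 2.16 ± 0.25 to 4.11 ± 1.12 CPM with da (adjusted p = 0.036), and from 3.84 ± 0.27 to 7.02 ± 1.06 with da:da (adjusted p = 0.00209) and 13.6 ± 0.57 with scute (adjusted p = 1.19e-06). REG, an alternative activator of the core particle, fell from 258 ± 4.68 CPM to 191 ± 11.3 with da:da and 183 ± 6.35 with scute (adjusted p = 0.00591 and 0.000459). Pomp, the chaperone of core assembly, fell with da:da (log2 -0.37 ± 0.10, adjusted p = 0.0396), and Usp14, a deubiquitinase of the proteasome, rose with scute (log2 0.31 ± 0.10, adjusted p = 0.0203). All these values are on TMM scaling. Without TMM factors the median of all genes was higher with scute, and values of the 7 factors in that setting are not given here.

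Of the 4 regulators of proteasome genes, cnc and Keap1 were called in both directions. In the knock-down, cnc rose from 622 ± 57.0 to 998 ± 109 CPM (log2 0.68 ± 0.13, adjusted p = 0.00582) and Keap1 from 50.2 ± 6.77 to 113 ± 15.1 (log2 1.17 ± 0.15, adjusted p = 0.000875). With da:da the same 2 fell, cnc from 531 ± 17.1 to 428 ± 31 CPM (log2 -0.31 ± 0.09, adjusted p = 0.0434) and Keap1 from 68.5 ± 6.01 to 35.9 ± 8.96 (log2 -0.93 ± 0.17, adjusted p = 0.00282). With scute cnc fell on TMM scaling (log2 -0.32 ± 0.09, adjusted p = 0.0114) and Keap1 was at 77.1 ± 8.28 CPM. Leaving out the TMM factors raised the median of all genes with scute and with da:da and lowered it in the knock-down. Values of the 4 regulators in that setting are not given here. In it the standard subunit Rpt5 went from a log2 change of -0.35 with scute to 0.09. With da 0 of the 4 were called. Over all genes, 20.4% were called in the knock-down, 22.9% with da, 11.9% with da:da and 45% with scute.

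Genes of ubiquitin supply and delivery were called with scute in 3 of 13 cases higher and 6 lower, against 22.8% and 22.2% of all genes. In the knock-down 2 were called higher (20.4% of all genes in either direction), with da 1 higher (22.9%) and with da:da 1 lower (11.9%). Among those that fell with scute on TMM scaling were RpL40 and RpS27A, which encode ubiquitin fused to ribosomal proteins (log2 -1.0 and -0.75), and Uba1, the ubiquitin-activating enzyme (log2 -0.60 ± 0.08, adjusted p = 9.27e-05). Values of the 13 genes are not given here without TMM factors, a setting that raised the median of all genes with scute and lowered it in the knock-down. In the knock-down the 2 fusion genes were the ones that rose on TMM scaling (log2 0.63 and 0.51). The polyubiquitin gene Ubi-p63E rose with da, from 164 ± 13.9 to 322 ± 54.1 CPM (adjusted p = 0.0202), and with scute (log2 0.40 ± 0.12, adjusted p = 0.0134). Ribosomal protein genes took 24.3% to 27.4% of counts in batch 2 controls and 15.4% to 19.9% with scute. In batch 1 they took 31.8% to 36.8% in controls and 35.8% to 38.8% in the knock-down. Their part in the fusion genes' changes was not tested.

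The COP9 signalosome is a complex built like the proteasome lid. With scute, 5 of its 9 genes were called lower (alien, CSN3, CSN4, CSN5 and CSN6) and 0 higher, with log2 changes from -0.31 to -0.85 on TMM scaling, against 22.2% of all genes called lower and 45% in either direction. Leaving out the TMM factors moved the median of all genes from 0.05 to 0.49, and values of the 9 genes in that setting are not given here. In it the standard subunits Prosalpha2 and Rpt6 went from log2 -0.38 and -0.41 with scute to 0.07 and 0.04. One was called lower with da (alien), where 22.9% of all genes were called, and 1 with da:da (CSN7), where 11.9% were. In the knock-down, where 8 were tested, 0 were called, against 20.4% of all genes.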

How the data were processed

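RNA was amplified and made into libraries with a stranded mRNA kit, per the labels' protocols, and read as single reads of 50 nt in batch 1 and paired reads of 150 nt in batch 2. The deposited values are raw read counts per gene, made with featureCounts 2.0.2 on BDGP6.28, annotation release 101, without a strand option, per the file headers. Reads with several mapping places or genes were not counted, and in batch 2 each mate counted on its own. The aligner is not given in the sources used here. The authors' deposited tables give log2 fold changes and adjusted p-values from DESeq2, per their title sheet, and are quoted where named.

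Counts were tested with edgeR 4.0.16 (R 4.3.3, limma 3.58.1), by the quasi-likelihood test with TMM scaling and filterByExpr, in 1 fit per batch (9540 and 14190 genes) and, for differences between responses, 1 fit of 17 libraries (14083 genes). Adjusted p-values are Benjamini-Hochberg over all genes tested, and called means under 0.05. Sums of CPM and FPKM were computed from the deposited counts and exon lengths. The script was tested on simulated data. Alternatives were RLE scaling, total library size, TMM without ribosomal protein and mitochondrial genes, other filters, DESeq2 1.42.0, a replicate block, other sets of libraries and leaving out each library. Members and lists were chosen with earlier results of these data known. Genes named in full were the catalytic subunits, Rpn11, the ubiquitin-binding subunits, the 3 lowest p-values and the extreme changes of each comparison, and all genes failing the filter.

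Same-numbered knock-down and control libraries deviated together, with correlations of 0.187, 0.190 and 0.287 over genes. Same-numbered libraries of the remaining groups did not all do so. Libraries of unlike number reached 0.255 (da replicate 1 with knock-down replicate 2). The labels do not say what a replicate number marks, so the main tests used no block and the replicate block was an alternative only. P-values measure the spread between pooled samples. The 17 further per-sample columns of the workbook were not used. Promoter motifs were not searched.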

Additional observations from a re-analysis of the deposited data

Results flagged for a closer look

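In 6 cases the response of a gene to one transgene differed from its response to another by a test of the difference itself, in the edgeR fit of all 17 libraries. Over all genes, 28.5% were called for scute minus da and 35.7% for scute minus knock-down. For da:da minus knock-down and da:da minus da the shares were 17.9% and 6.99%. Rpt6 responded lower to scute than to da (log2 difference -0.57) and than to da knock-down (-0.54). Rpt3R responded higher to scute than to da (3.26) and than to da knock-down (4.21). Rpn13R responded higher than to da knock-down with da:da (2.61) and with scute (2.28). Each of these differences spans the 2 batches, which differ in read length, so that it rests on each batch's own controls. The Rpt6 differences became -0.086 (against da) and 0.28 (against the knock-down) without TMM factors.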

How the results depend on the processing

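Of the alternatives, leaving out the TMM factors (total library size) moved most values, since it shifted the median log2 change of all genes by over 0.1. Under it the medians of the standard subunits (all genes in parentheses) were -0.49 (-0.37) in the knock-down, 0.36 (0.28) for da against knock-down, 0.068 (0.10) with da:da, 0.40 (0.49) with scute, 0.31 (0.34) for scute against da:da, 0.20 (0.16) and 0.53 (0.46) for da:da minus da and minus knock-down, and 0.51 (0.46) and 0.87 (0.80) for scute minus da and minus knock-down. The members called were then 24, 6, 28 and 17 for the knock-down, da against knock-down, scute and scute against da:da, and 24, 17 and 32 for da:da minus knock-down, scute minus da and scute minus knock-down. With it the sign turned for Prosalpha2 (0.069 with scute, 0.051 against da:da), Prosbeta4 (0.13 with scute), Rpt5 (0.094 and 0.026), Rpt6 (0.036, 0.069 and, minus knock-down, 0.28), Rpn11 (0.37 with scute) and Prosbeta5 (0.23 with scute, 0.76 for scute minus knock-down, 0.49 minus da). Keeping only genes with at least 10 counts in every library gave medians of 0.22 (scute minus knock-down) and 0.15 (scute minus da) and 9 and 7 calls. The knock-down had 2 calls with no filter, DESeq2, all libraries in 1 fit, and both replicate block fits, the one of knock-down and control alone being chosen after seeing the data. DESeq2 gave 0 calls for da against knock-down and 2 for da:da minus knock-down. Scute against da:da had 5 calls with only those groups and 4 with all libraries. The replicate block also gave 3 calls with da (among them Rpn5, adjusted p = 0.0418), 2 for da:da minus knock-down, 1 for da:da minus da and 5 for scute against da:da, and changed no other count by over 1.5 times. Leaving out 1 library gave 0 to 2 calls in the knock-down, 0 to 1 for da against knock-down, 1 to 3 for da:da minus knock-down and for scute minus da, 2 to 7 for scute against da:da and 6 to 8 with scute. Their medians ran from -0.13 to 0.079 with da, from -0.074 to 0.12 for scute minus knock-down and from -0.16 to 0.11 for scute minus da. The core share was 57.1%, 56.4% and 56.6% (batch 1 control, da, knock-down) and 44.6%, 43.6% and 43.6% (batch 2 control, da:da, scute) from counts not divided by length, and 61.3%, 61.3%, 60.7%, 49.1%, 48.2% and 47.4% without members that share exon bases with another gene. Where no construction explains a shift, the cause was not tested. Counts of the paralogs in batch 1 limit their precision.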

Other observations

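Besides the 34 genes, 14 genes of the count data have symbols of the same pattern in a later annotation but none in the workbook, so the rule did not take them. They include Prosalpha1, listed with 0 counts in all 8 batch 1 libraries and with 9 to 13, 10 to 16 and 4 to 14 counts in the control, da:da and scute libraries of batch 2. Its paralog Prosalpha1R was likewise listed with 0 counts in batch 1, and with 5 to 11, 7 to 17 and 9 to 19 counts in those groups of batch 2. Reads with several mapping places were not counted, so these counts do not show the level of either gene, and how many such reads they lost was not tested. The 12 further genes are mostly variant paralogs such as Prosalpha6T, Rpt4R and Prosbeta2R1. None of the 14 was called by edgeR with da:da or scute against control where it was tested.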
